A study of Mus musculus with 16 samples.

Results

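The genes described here lie on both sides of Aqp11 on mouse chromosome 7. The set was a list of 60 gene symbols, 25 placed before and 34 after Aqp11 by the order of genes in RefSeq, with Paaf1 not placed. Of these, 53 had at least 1 probe set that names only that gene (105 probe sets), out of 18193 genes so named on the array, and 47 were bright enough to be tested, out of 12508 genes tested. Usp35, Picalm, Ucp2, Paaf1, Tsku, Lrrc32 and Pak1 were not analysed here. P4ha3, B3gnt6, Neu3, Ankrd42, Chrdl2 and Map6 had signals too low to be tested. Of the 47 tested members, 42 were above the filter on low signal on all 16 arrays.

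Kidneys came from Aqp11-/- pups (9, of them 5 males and 4 females) and from their Aqp11+/+ littermates (7, of them 3 males and 4 females), all aged 7 days and labelled C57BL/6J, with 1 animal per array. The null allele had been made in 129/SvEvBrd and crossed for 10 to 11 generations to C57BL/6 before heterozygotes were interbred. The null allele is inherited through the germline, so it is not limited to any cell type of the kidney. Signals are given in log2 after quantile normalization, a change is knockout minus wild type on that scale, and a gene is called higher or lower where the adjusted p from limma over all genes tested was under 0.05.

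The Aqp11 protein is a water channel relative found in the endoplasmic reticulum of proximal tubule cells, and mice without it develop cysts there. A mouse allele made in one strain and crossed to another keeps around it a stretch of the first strain's DNA, because few recombinations fall close to the allele under selection. Null animals then differ from wild-type littermates in that stretch as well as in the deleted gene. Loss of Aqp11 and 129-derived DNA linked to the null allele cannot be told apart for the genes around it in this design. No genotype other than that of Aqp11 was used here.

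Aqp11 itself lay at 2.78 to 3.69 (median 2.78) on the knockout arrays, 7 of 9 at the floor set for low signals, and at 7.72 to 8.11 (median 7.78) on the wild-type arrays. The log2 change of -4.92 is therefore a lower bound of the fall (limma adjusted p = 3.96e-14). All 13 proximal tubule markers and all 9 markers of the loop, distal tubule and collecting duct were bright enough to be tested, as were 4 of 5 podocyte markers, so the arrays carried kidney RNA. In knockout, 18 of 18 macrophage markers were higher, with a median log2 change of 1.60, and 12 of 13 proximal tubule markers were lower, with a median of -0.71. In whole kidney, fewer cells of a type and less RNA per cell cannot be told apart. The deposited signals differed 2.13-fold in trimmed mean between arrays before normalization.

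The neighbours of Aqp11 moved in both directions. Of the 47 tested members, 8 were higher and 13 lower in knockout and 26 did not pass. The changed share was 44.7%, where 17.7% of all genes tested were called. Higher calls made up 17% of members and 9.34% of all genes, and lower calls 27.7% of members and 8.34% of all genes. Groups did not overlap on any array for 11 members (23.4%), against 5.35% of all genes. The list was drawn up with results of these data known, so these shares cannot show how often neighbours of Aqp11 change. Of the 25 other tested genes of the same interval, 24% were called and 8% did not overlap. The median change of the tested members was -0.029, beside 0.0032 for all genes, while the median size of change regardless of sign was 0.25, beside 0.13. Changes were mostly modest: only Ctsc and Mogat2 differed by 2-fold or more.

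**Figure D1:**
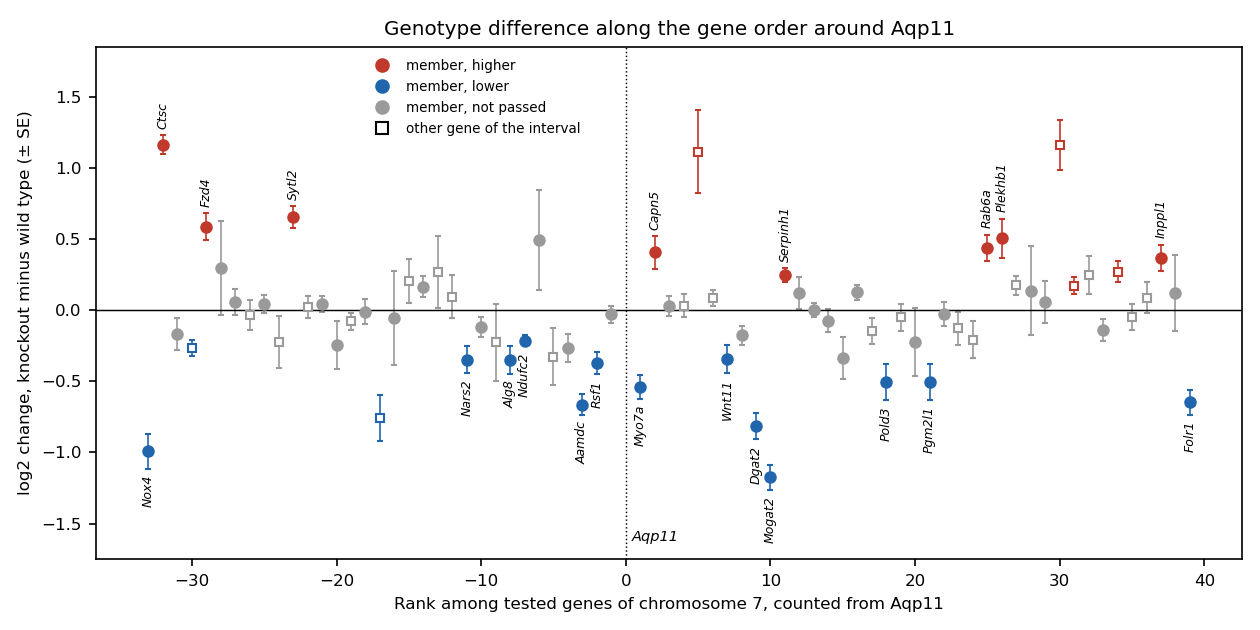
Log2 change in knockout minus wild type (vertical axis, bars are ± SE of the fit) for each tested gene by its rank from Aqp11 on chromosome 7 (horizontal axis). Filled circles are the 47 tested members and open squares the 25 other tested genes of the same interval, in red where higher, blue where lower and grey where not passed. Higher and lower genes lie among each other on both sides, with Ctsc at 1.16 next to Nox4 at -0.99.

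Changed members lay on both sides of Aqp11 and out to the ends of the list. Before Aqp11, 3 of 22 tested members were higher and 6 lower, and after it 5 of 25 were higher and 7 lower. The nearest tested gene before it, Clns1a, a factor in assembling splicing particles, had a change of -0.029 (limma adjusted p = 0.811), and the nearest after it, Myo7a, was lower. In consecutive groups of 25 tested genes moving toward Aqp11 from before it, 20%, 24%, 36% and 28% were changed. Moving away after it, 40%, 40%, 28% and 0% were changed. Over the whole interval the list spans, members included, 27 of 72 tested genes were changed (37.5%). The share was 18.7% of 850 genes on the rest of chromosome 7 and 17.5% of 11566 genes on other chromosomes. The 25 genes of the interval that are not members had 4 higher and 2 lower (24%), so the share was larger among the listed genes than among those between them. This was not tested, because the list was drawn up with results of these data known.

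**Figure D2:**
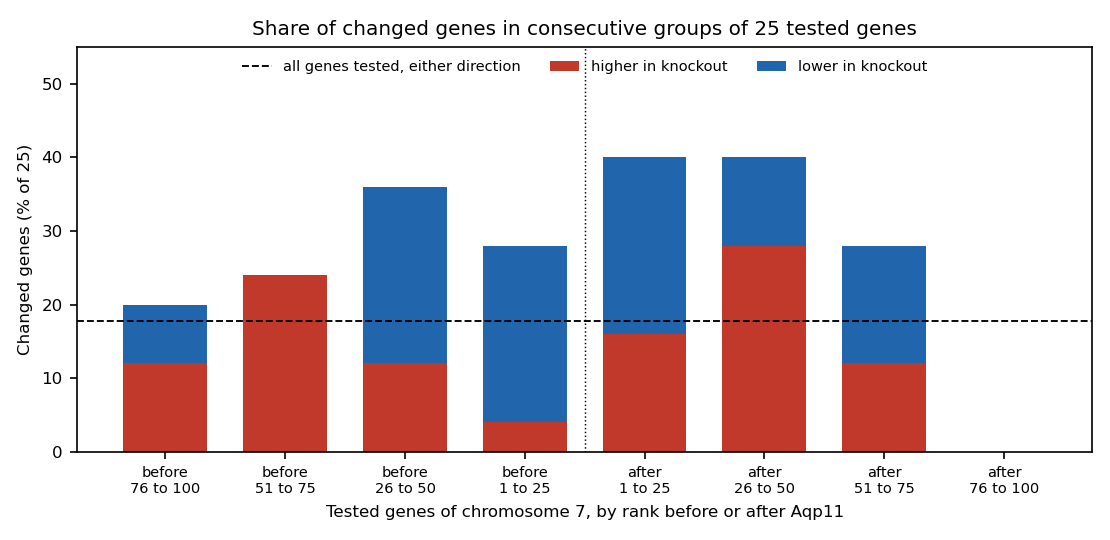
Share of changed genes (vertical axis, % of 25) in consecutive groups of 25 tested genes by rank before and after Aqp11 (horizontal axis), with red for higher and blue for lower in knockout. The dashed line is the 17.7% over all genes tested. The share reaches 40% in the first 2 groups after Aqp11 and is 0% in the last group after it.

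Ctsc and Nox4 are next to each other in the order of tested genes, at ranks 32 and 33 before Aqp11, and moved in opposite directions by more than the spread between animals. Their promoters are shown with that of Aqp11 to set this pair beside the deleted gene. Each window runs from 250 bases before to 50 bases after the start of the gene, 5′ to 3′ on the gene's strand, from RefSeq on GRCm38.p6. Capitals mark matches to GGGCGG (the GC box) and GAGGAA (a core bound by ETS factors such as PU.1 of macrophages), read on both strands, so that they also appear as CCGCCC and TTCCTC. In these windows no match overlapped another.
Ctsc, chr7:88277835-88278134, plus strand: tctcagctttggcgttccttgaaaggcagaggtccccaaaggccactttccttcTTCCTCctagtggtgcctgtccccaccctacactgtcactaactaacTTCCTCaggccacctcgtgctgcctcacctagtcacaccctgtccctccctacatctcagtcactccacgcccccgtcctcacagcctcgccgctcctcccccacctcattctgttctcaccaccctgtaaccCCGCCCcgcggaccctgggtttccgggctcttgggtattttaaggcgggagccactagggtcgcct
Nox4, chr7:87246399-87246698, plus strand: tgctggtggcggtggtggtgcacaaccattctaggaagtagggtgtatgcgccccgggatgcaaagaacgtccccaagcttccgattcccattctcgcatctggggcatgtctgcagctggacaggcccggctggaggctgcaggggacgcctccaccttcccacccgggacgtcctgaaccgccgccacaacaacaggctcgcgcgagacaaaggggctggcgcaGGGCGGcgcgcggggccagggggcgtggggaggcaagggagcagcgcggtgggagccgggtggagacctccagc
Aqp11, chr7:97738198-97738497, minus strand: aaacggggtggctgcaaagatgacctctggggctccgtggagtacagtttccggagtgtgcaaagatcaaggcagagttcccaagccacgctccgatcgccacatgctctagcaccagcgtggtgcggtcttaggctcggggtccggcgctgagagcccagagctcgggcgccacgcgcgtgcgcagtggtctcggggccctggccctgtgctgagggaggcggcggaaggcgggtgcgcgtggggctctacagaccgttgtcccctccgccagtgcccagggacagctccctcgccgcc
The Ctsc window held 1 GC box and 2 ETS cores, the Nox4 window 1 GC box, and the Aqp11 window neither. CCAAT and TATAAA, searched the same way, were in none of the 3, which says only that these letters are not in these windows. Of all 32851 windows in the table, 35.7% held GGGCGG, 37.4% CCAAT, 13.6% TATAAA and 28.3% GAGGAA. Among the 15 changed members with a window, 12 held GGGCGG, 6 CCAAT, 1 (Wnt11) TATAAA and 6 GAGGAA. The shares count windows of all genes and the latter counts members with any matching window, so they are not like for like. No difference between them was tested. A match is a description of letters and not of a bound site.

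Among the proteases, 2 of 4 tested members were higher and none lower. Ctsc encodes cathepsin C, the lysosomal dipeptidyl peptidase that activates the serine proteases of granules in myeloid cells. Its signal lay at 10.32 to 10.67 (median 10.48) on knockout arrays and at 9.10 to 9.52 (median 9.27) on wild-type arrays, without overlap. The change was 1.16 (SE 0.067, limma adjusted p = 1.92e-10), or 2.24-fold. Another tested probe set of Ctsc gave 1.15. The summed linear signal of the 18 macrophage markers was 7545 to 12700 on knockout arrays and 2734 to 4803 on wild-type arrays, also without overlap, and its part in the rise of Ctsc was not tested. Capn5, a calpain, lay at 6.95 to 7.44 (median 7.15) in knockout and 6.48 to 7.20 (median 6.76) in wild type. The change was 0.41 (SE 0.12, limma adjusted p = 0.0181) with 5 knockout arrays inside the wild-type range. Its other tested probe set had 0.46 and did not pass (limma adjusted p = 0.184). Prcp, a carboxypeptidase that can cleave angiotensin II, had 0.17 (limma adjusted p = 0.126), and Prss23, a secreted serine protease, 0.30 with an SD between knockout arrays of 0.83.

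Genes of membrane traffic and motors split, with 3 of 7 tested members higher and 1 lower. Sytl2, an effector of Rab27 that tethers secretory organelles to the plasma membrane, lay at 9.22 to 9.60 (median 9.41) in knockout and at 8.51 to 8.94 (median 8.70) in wild type. All knockout arrays were above all wild-type arrays, a change of 0.65 (SE 0.075, limma adjusted p = 2.79e-06). Myo7a, an unconventional myosin known for its role in hair cells of the inner ear, was lower, at 7.27 to 7.68 (median 7.48) in knockout and 7.82 to 8.33 (median 8.03) in wild type. Its groups did not overlap either (-0.54, SE 0.083, limma adjusted p = 8.21e-05). Plekhb1, a membrane protein with a pleckstrin homology domain, lay at 5.87 to 6.64 (median 6.20) in knockout and 5.26 to 6.01 (median 5.86) in wild type (0.50, SE 0.14, limma adjusted p = 0.014), and only knockout array 2-3 fell inside the wild-type range. The small GTPases Rab38 (-0.17) and Rab30 (-0.056) did not pass, nor did Uvrag, which acts with beclin in autophagy (-0.18, limma adjusted p = 0.0723).

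Rab6a, a GTPase of transport at the Golgi, gave opposite calls from different probe sets. The probe set that was brightest over all 16 arrays lay at 9.76 to 10.39 (median 10.08) in knockout and 9.34 to 9.74 (median 9.73) in wild type, higher without overlap (0.44, SE 0.091, limma adjusted p = 0.00164). A second lay at 9.25 to 9.71 (median 9.55) in knockout and 9.70 to 9.93 (median 9.77) in wild type, where it was the brighter of the pair, so the choice of probe set itself rests on the knockout arrays. In a fit over probe sets it was lower (-0.28, limma adjusted p = 0.0154), and the third had 0.68 (limma adjusted p = 0.203). The direction of Rab6a is thus unsettled, and its rise is counted above only for its brightest probe set.

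Among members of mitochondrial, redox and sugar metabolism, 5 of 8 tested were called lower and none higher. Lower calls made up 8.34% of all genes, and the roles were chosen with results of these data known. Nox4, an oxidase of the kidney tubule that makes hydrogen peroxide, lay at 9.29 to 10.15 (median 9.92) in knockout and 10.56 to 11.19 (median 10.91) in wild type, without overlap. The fall was -0.99 (SE 0.12, limma adjusted p = 5.33e-06), and its other probe set gave -1.03. Aamdc, named for a link to fat cell differentiation, lay at 7.57 to 8.03 (median 7.77) in knockout and 8.33 to 8.64 (median 8.41) in wild type (-0.66, SE 0.073, limma adjusted p = 1.44e-06). Before Aqp11 it is the nearest member whose groups did not overlap. Ndufc2, a subunit of respiratory complex I, lay at 11.47 to 11.66 (median 11.63) in knockout and 11.74 to 11.86 (median 11.83) in wild type, a small fall (-0.21, SE 0.039, limma adjusted p = 0.000529) again without overlap. Another of its probe sets fell by more (-0.67), and the remaining tested one did not pass (-0.26, limma adjusted p = 0.164).

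Pgm2l1 and Nars2 fell with partial overlap. Pgm2l1, which makes glucose 1,6-bisphosphate, lay at 5.35 to 6.28 (median 5.98) in knockout and 6.18 to 6.79 (median 6.49) in wild type, and wild-type array 3-1 was the only one of its group inside the knockout range (-0.50, SE 0.13, limma adjusted p = 0.00842). Its other tested probe set had -0.024 and did not pass (limma adjusted p = 0.941). Nars2, the mitochondrial asparaginyl-tRNA synthetase, lay at 7.07 to 7.65 (median 7.39) in knockout and 7.39 to 7.96 (median 7.69) in wild type (-0.35, SE 0.093, limma adjusted p = 0.0119), with 5 knockout arrays inside the wild-type range. Me3, a mitochondrial malic enzyme (0.059), and the complex I assembly factors Tmem126a (0.042) and Tmem126b (-0.24) did not pass.

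Lipid enzymes held the largest fall of the set. Mogat2, which makes diacylglycerol from monoacylglycerol, lay at 6.93 to 7.49 (median 7.22) in knockout and 8.18 to 8.57 (median 8.48) in wild type, a change of -1.18 (SE 0.089, limma adjusted p = 8.23e-09), or 2.26-fold lower. Dgat2, its neighbour in the gene order, makes triacylglycerol from diacylglycerol and lay at 8.16 to 8.62 (median 8.31) in knockout and 8.98 to 9.53 (median 9.15) in wild type (-0.82, SE 0.093, limma adjusted p = 2.39e-06). Mogat2 and Dgat2 both had lower signals on all 9 knockout arrays than on any wild-type array, and the other probe set of Dgat2 gave -0.89. Inppl1, the lipid phosphatase SHIP2, lay at 8.10 to 8.79 (median 8.59) in knockout and 7.92 to 8.44 (median 8.14) in wild type (0.37, SE 0.091, limma adjusted p = 0.00669), with 2 knockout arrays inside the wild-type range. Acer3, an alkaline ceramidase (0.028), Gdpd5, a phosphodiesterase of glycerophospholipids (0.12), the lipid transfer protein gene Stard10 (-0.14) and Thrsp, a regulator of lipid synthesis (0.49, with an SD between knockout arrays of 0.99), did not pass. Without knockout array 2-3, Thrsp had 0.76 and passed as higher (limma adjusted p = 0.0454). It was called in only 1 of 29 alternative settings that tested it. Its other tested probe set had 1.03 and did not pass (limma adjusted p = 0.305). Of 6 fat cell markers, 3 were tested and 0 were called in either direction. Their SD between knockout arrays was 1.82 for Adipoq, 2.05 for Ucp1 and 0.19 for Fabp4, so this does not show equal fat content.

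In membrane transport and folate uptake, 1 of 4 tested members passed. Folr1, the folate receptor at the brush border of the proximal tubule, lay at 10.00 to 10.60 (median 10.26) in knockout and 10.86 to 11.15 (median 10.88) in wild type, lower without overlap (-0.65, SE 0.086, limma adjusted p = 1.5e-05). Folr2, the folate receptor of macrophages and the next tested gene toward Aqp11, had 0.12 (limma adjusted p = 0.828) at a low signal of 3.27 to 5.61 in knockout and 3.71 to 4.86 in wild type. The anion transporter gene Slco2b1 (-0.34, limma adjusted p = 0.127) and the potassium channel subunit gene Kcne3 (-0.22) did not pass. The summed linear signal of the 13 proximal tubule markers was 14580 to 24280 on knockout arrays and 32180 to 38940 on wild-type arrays, and its part in the falls of Folr1, Nox4, Dgat2 and Mogat2 was not tested.

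**Figure D3:**
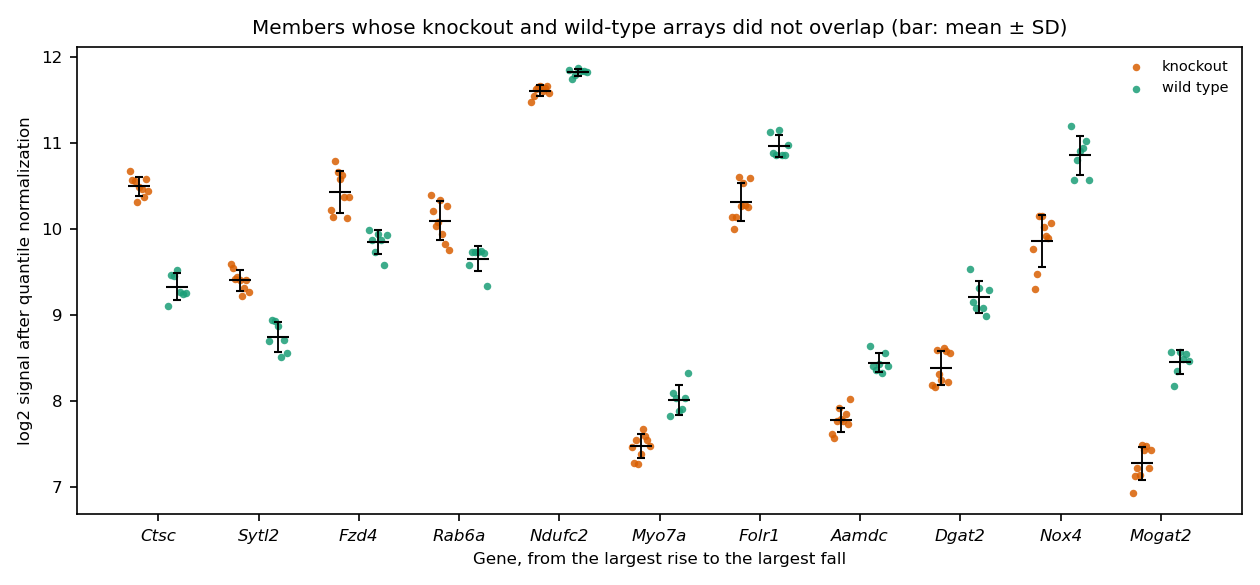
Log2 signal after quantile normalization (vertical axis) on each of the 9 knockout arrays (orange, left of each pair) and 7 wild-type arrays (green, right) for the 11 members whose groups did not overlap, ordered by change. Points are animals and bars the mean ± SD. Ctsc stands highest in relative change (1.16) and Mogat2 lowest (-1.18).

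Of 3 tested members of the secretory pathway, 1 was higher and 1 lower. Serpinh1, the collagen chaperone HSP47, lay at 11.49 to 11.69 (median 11.59) in knockout and 11.16 to 11.51 (median 11.33) in wild type (0.25, SE 0.048, limma adjusted p = 0.000967), and only 1 array of each group, knockout 2-4 and wild type 4-2, fell inside the range of the other. Stromal markers were higher for 4 of 8 in knockout and lower for none, with a sum of 26890 to 29090 against 23730 to 26070 in wild type, and their part in this rise was not tested. Alg8, a glucosyltransferase that builds the N-glycan precursor in the endoplasmic reticulum, lay at 6.60 to 7.24 (median 6.95) in knockout and 7.12 to 7.61 (median 7.33) in wild type (-0.35, SE 0.098, limma adjusted p = 0.0152), with wild-type array 2-2 the only one of its group inside the knockout range. Spcs2, a subunit of signal peptidase, did not pass (0.12, limma adjusted p = 0.105).

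Fzd4, a Wnt receptor that also binds norrin, lay at 10.13 to 10.79 (median 10.37) in knockout and 9.58 to 9.98 (median 9.87) in wild type, higher without overlap (0.59, SE 0.095, limma adjusted p = 0.000139). That rise belongs to its brightest probe set alone, since the others had -0.11 and -0.27 and did not pass. Wnt11, a ligand that the tips of the branching ureteric bud express, lay at 6.52 to 7.20 (median 6.86) in knockout and 7.01 to 7.39 (median 7.23) in wild type (-0.34, SE 0.0996, limma adjusted p = 0.0199), with 2 knockout arrays inside the wild-type range.

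Of the nuclear genes, 2 of 7 tested were lower and none higher, with a median size of change of 0.042. Rsf1, a subunit of a chromatin remodeller, lay at 7.85 to 8.25 (median 7.98) in knockout and 8.12 to 8.60 (median 8.29) in wild type (-0.37, SE 0.076, limma adjusted p = 0.00147). Knockout array 4-4 was the only one of its group inside the wild-type range. Another tested probe set of Rsf1 was lower (-0.46). The others had -0.36 and -0.26 and did not pass (limma adjusted p = 0.0971 and 0.202). Pold3, a subunit of DNA polymerase delta, lay at 6.59 to 7.42 (median 7.20) in knockout and 7.21 to 7.90 (median 7.68) in wild type (-0.51, SE 0.13, limma adjusted p = 0.00698), with wild-type array 1-1 the only one inside the knockout range. Its other tested probe sets had -0.12 and -0.057 and did not pass (limma adjusted p = 0.462 and 0.86). Ints4 of the Integrator complex had -0.26 (limma adjusted p = 0.0667). Rps3, a protein of the small ribosomal subunit, had 0.00046 (limma adjusted p = 0.997), and the Polycomb gene Eed (0.042) and Pcf11 of transcript 3′ end formation (-0.012) did not pass either.

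None of the 5 tested genes of intracellular signalling passed, and the largest of their log2 changes was 0.14. These were the adaptor Gab2 (-0.12), the arrestin Arrb1 (-0.074), the phosphatase methylesterase Ppme1 (-0.029), the TNF receptor relative Relt (0.14) and Arhgef17 (0.059).

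The fit over probe sets called 10 of the members' 84 tested probe sets higher and 18 lower, beside 12.6% of 23193 probe sets called in either direction. Of 23 members with 2 or more tested probe sets, 4 had every probe set called the same way, 7 had some called and some not, and 12 had none called. Those with mixed calls were 30.4% of these members, beside 14.9% of the 6163 genes with 2 or more tested probe sets. Those with every probe set called the same way were 17.4%, beside 5.05%, so members were called more often in either form. Among genes with any probe set called, 7 members had mixed and 4 uniform calls, beside 918 and 311 of all genes. Mixed calls were thus no more frequent among called members than among all called genes. Rab6a, among the 7, was the only member called in both directions. Over all 6163 genes, 3 were called in both directions: Rab6a, Ric8a and Serbp1. Ric8a also lies on chromosome 7, and Serbp1 on chromosome 6. Both were named after their values were seen.

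**Figure D4:**
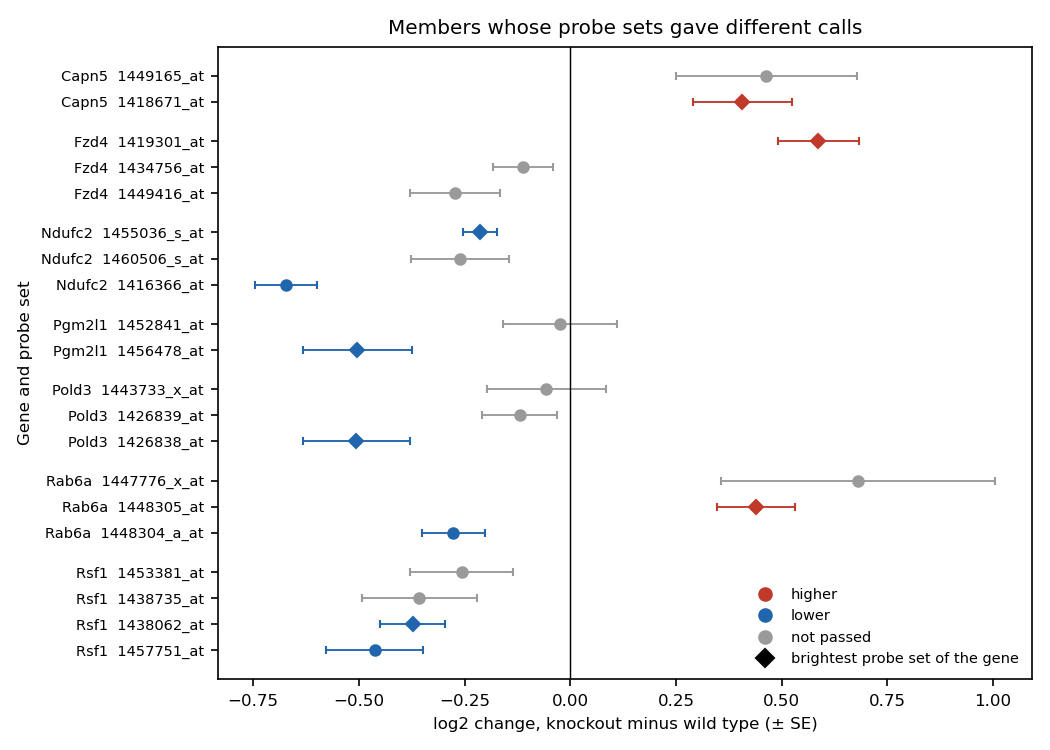
Log2 change in knockout minus wild type (horizontal axis, bars are ± SE) for each tested probe set (rows) of the members whose probe sets gave different calls, with red for higher, blue for lower and grey for not passed. Diamonds are the brightest probe set of each gene. The diamonds of Rab6a (0.44) and Fzd4 (0.59) lie to the right of 0 while another probe set of the same gene lies at -0.28 and at -0.11.

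A disagreement of this kind was then fitted directly, in a comparison added after the data were seen: the log2 ratio of a gene's brightest to its second brightest tested probe set, in knockout against wild type with limma over all 6163 such genes. The ratio changed for 2 of 23 members (8.7%), where 0.195% of all genes (12) were called. For Rab6a the ratio lay at 0.14 to 0.85 (median 0.62) in knockout and -0.39 to 0.034 (median -0.16) in wild type, a change of 0.72 (SE 0.10, limma adjusted p = 0.00253). For Fzd4 it lay at 1.06 to 1.82 (median 1.39) in knockout and 0.44 to 0.98 (median 0.69) in wild type, a change of 0.70 (SE 0.12, limma adjusted p = 0.0179). Neither gene's groups overlapped. Pgap2 (0.98), Spon1 (0.81), Trim30a (-1.19) and Map3k10 (0.56) of chromosome 7, named after their values were seen, were also called. Their ranks from Aqp11 were 49, 110, 59 and -348, all outside the interval that the list spans. Aqp11 was called too, but its probe sets lay at the floor on 7 and 5 of the 9 knockout arrays, which sets its ratio there, so it is left out of the next count. Without it, chromosome 7 held 6 of 11 called genes with 341 genes tested, and other chromosomes 5 with 5817 tested. The 6 include Rab6a and Fzd4, whose probe sets had already been seen to disagree. Of 13 genes of the interval that are not members, 0 were called. No other member's ratio passed. Among these were Pgm2l1 (-0.48, limma adjusted p = 0.447), Pold3 (-0.39, limma adjusted p = 0.423), Dgat2 (0.072), Nox4 (0.040) and Ctsc (0.013, SE 0.23). The probes' own sequences were not used here, and whether they differ from the animals' transcripts was not tested. The call for Fzd4 was lost without wild-type array 2-1, 2-2 or 4-1 (limma adjusted p = 0.0538, 0.0521 and 0.0563) and with the first sample number as a replicate block together with sex (0.0518). Neither gene passed in males or females alone, where no gene of the 6163 did.

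Genes of the interval outside the list gave 6 calls. P2ry6, a receptor for UDP that macrophages express, lay at 6.58 to 7.63 (median 6.80) in knockout and 4.74 to 6.14 (median 5.92) in wild type (1.16, limma adjusted p = 8.58e-05), without overlap. Gm15506 (1.11), Arap1 (0.27) and Fchsd2 (0.17) were also higher, and Tmem135 (-0.26) and 4632427E13Rik (-0.76) lower. Further out, at ranks 56 and 57 after Aqp11, Trim34a (-2.95) and Trim12a (-2.75) fell by more than any member, and both values are lower bounds of the fall, with 1 and 5 of 9 knockout arrays at the floor. Knockout array 4-3 lay inside the wild-type range for Trim34a, at 6.71 against 6.63 to 7.50 in wild type. Over the 21 changed members it did not stand apart: it lay inside the wild-type range for 4 of them, and the knockout arrays for 1 to 5.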

How the data were processed

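Kidney RNA of 16 mouse pups was hybridised to an Affymetrix array of 45101 probe sets, 64 of them controls, which were left out. The deposited table gives linear, unlogged signal intensity, made by the authors with the Affymetrix software that the submitters' processing notes name (GCOS 1.3). The sources used here do not say if arrays were scaled to each other. Trimmed (2%) mean intensity ran from 110.8 to 235.5, so intensities were quantile normalized, floored at the 20th percentile (6.88, or 2.78 in log2) and logged, which understates changes of dim genes. The number of animals limits the precision.

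The platform annotation gave the gene names, with symbols updated through RefSeq (GRCm38.p6) for 34741 of the 34945 probe sets that name 1 gene. Each gene was read from its brightest such probe set and entered the test if 7 or more arrays had it above the 40th percentile of their signals. The genotypes were compared by limma (version 3.58.1, R 4.3.3), with genotype as sole term and a variance trend in eBayes. P-values were adjusted by Benjamini and Hochberg's method across every gene tested, and 0.05 was the threshold. The fit was checked on simulated data. The alternatives were other scalings, floors, filters, probe set rules, terms and variance models, each sex alone, and each array left out. Figures were drawn with matplotlib 3.10.9.

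The members, roles and marker lists were chosen with earlier results of these data known. The text names Aqp11, all members by role, the nearest tested genes on each side, the 6 changed genes of the interval outside the list with the smallest p, Trim34a and Trim12a. Changed members have full values. Of the others, those under 0.05 before adjustment (Prcp, Uvrag, Spcs2, Ints4, Slco2b1) have their adjusted p. An array is named where it alone of its group fell inside the other group's range. The first sample number was checked as a pairing: the deviations of same-numbered knockout and wild-type animals correlated at 0.0401, 0.129, -0.0129, 0.158 and 0.321 for numbers 1 to 5. For numbers 2, 4 and 5 this exceeded the correlation with every other wild-type number. The labels do not say that the number marks a litter, and not all 5 were over 0.1, so it was not used to pair animals.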

Additional observations from a re-analysis of the deposited data

Results flagged for a closer look

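In 5 groups of a member's values, 1 array lay far from the rest of its group, with a gap that takes up most of the group's range. Pgm2l1 had 5.348 on knockout array 2-3, where the other knockout arrays lay at 5.852 to 6.277, and without that array its log2 change was -0.42 (limma adjusted p = 0.0102). Rsf1 had 8.246 on knockout array 4-4, above the others at 7.851 to 8.007, and without it the change was -0.41 (limma adjusted p = 0.000594). Rab6a had 9.34 on wild-type array 5-1, below the others at 9.58 to 9.737, and without it the change was 0.39 (limma adjusted p = 0.00418). These 3 genes were called with and without the outlying array.

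Prcp had 7.363 on wild-type array 4-1, against 7.531 to 7.591 on the other wild-type arrays. Relt had 2.781, the floor, on wild-type array 2-2, against 4.48 to 5.399 on the others, and its log2 change was 0.14 with that array and -0.17 without it, neither passing (limma adjusted p = 0.832 and 0.717). Chance alone flags about 1 in 20 groups, or 4.8 of the 96 groups examined, so 5 is near that number.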

How the results depend on the processing

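The 21 changed members kept their direction in every one of 31 alternatives that tested them, and none reversed. Apart from the averaging of probe sets, each alternative read a gene from its brightest probe set. It therefore does not settle the direction of members whose probe sets disagree, such as Rab6a and Fzd4. All 21 stayed called with any 1 array left out (8 to 9 members higher, 13 to 14 lower, 1861 to 2211 genes in all). Aamdc, Ctsc, Dgat2, Folr1, Mogat2 and Nox4, 6 of the 21, were called in all 31. With the deposited scaling, 441 genes passed, and 1 member was higher and 5 lower. Males alone gave 1415 genes and 6 members lower, and females alone 676 genes, 3 members higher and 8 lower. These settings use fewer animals or leave the 2.13-fold spread in brightness. Genotype by sex passed for 0 of 12508 genes with limma (1354 at an unadjusted p under 0.05, 5 of them members). Averaging probe sets left 16 members changed and lost Fzd4 (0.067), Nars2 (-0.0997), Ndufc2 (-0.23), Pold3 (-0.23) and Rab6a, and the cause was not tested. The first sample number was not used to pair animals, since 3 of 5 numbers but not all correlated over 0.1. With it as a replicate block, 2654 genes and 21 members were changed, and with sex added 2602 genes and 22 members, when Ints4 (-0.28) passed. Of the members that did not pass, those called with 1 array left out were Ints4 (-0.30 without wild type 3-1, -0.31 without knockout 3-4), Slco2b1 (-0.41 without knockout 1-2), Spcs2 (0.15 without wild type 2-1) and Thrsp (0.76 without knockout 2-3). Members at low signal, such as Thrsp, Rab30, Relt, Kcne3 and Folr2, lie near the floor, where small differences could not be seen.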
